A study of Mus musculus with 6 samples.

Results

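The genes described here are 36 mouse genes of fatty acid oxidation and of the PPAR response, taken by name from a list out of the 55487 gene identifiers in the count table. All 36 were found under their GENCODE M21 symbols, each once. RNA came from megakaryocyte-erythroid progenitors, the marrow cells from which the erythroid and platelet lineages develop, and was sequenced in bulk to study how fasting acts on red cell production. The series text calls these cells sorted, while the extraction protocol in the labels describes ground tissue. The control group held 3 libraries from wild-type C57BL/6 control mice aged 8 weeks, and the fasted group held 3 libraries from wild-type C57BL/6 mice of the same age that had been fasted for 6 h. Neither the mice or pools behind a library nor the sex of the mice is given in the labels, so the p-values measure the spread between these libraries, which may in part be technical.

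Long-chain fatty acids enter oxidation in a fixed order. An acyl-CoA synthetase activates the acid, the carnitine shuttle carries the acyl group across the mitochondrial membranes, and a cycle of dehydrogenase, hydratase, dehydrogenase and thiolase steps shortens it while electrons leave through the electron transfer flavoprotein. PPARs are nuclear receptors that bind fatty acids and switch on many of these genes as partners of the retinoid X receptors. In liver and muscle, fasting is a well-known inducer of such PPAR targets, among them Cpt1a, Pdk4 and Angptl4.

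Total counts ranged from 12797144 to 30246110 per library, and every control library was deeper than every fasted one. Counts also lay in odorant and vomeronasal receptor genes, which were taken to be silent in these cells and served as a measure of background. Whether each of them is silent was not tested. If their rate held over all exons, background took 3.90% to 8.595% of the counts in control and 11.5% to 14.6% in fasted libraries. Levels are therefore given beside the count that background would leave on a gene of the same length, and the main test covered the 10641 genes whose mean count was at least 5 times that value. The CPM given below are counts scaled to the summed counts of those genes in each library, not to its total, with TMM factors from the same genes. Of the 10 markers of erythroid and megakaryocyte progenitors examined, 8 reached 5 times background (Zfpm1 and Vwf did not). The sum of all 10 was 3928, 3967 and 2241 CPM in control libraries 1, 2 and 3 and 3283, 3704 and 4779 CPM in fasted libraries 1, 2 and 3. Car1 was the largest part, with 1719, 2136 and 1149 CPM in control and 1873, 2143 and 2897 CPM in fasted libraries. In the main test the log2 fold changes of the 8, fasted minus control, ran from -0.86 (Pf4) to 0.50 (Epor), so the sum does not speak for each marker. The 14 granulocyte and monocyte markers all reached 5 times background. They summed to 3680.3, 12676 and 19435 CPM in control libraries 1, 2 and 3 and 4657, 3197 and 1947 CPM in fasted libraries 1, 2 and 3, so control libraries 2 and 3 stood above the other 4. The mast cell and basophil sum, with 4 of 5 at that level, was 115 to 219 CPM in control against 57.0 to 119 CPM in fasted libraries, the lymphoid sum, with 4 of 8, 130.3 to 207 CPM in control against 204 to 381 CPM in fasted libraries, and the macrophage sum, with 1 of 6, 40.5 to 82.5 CPM in control against 56.1 to 75.3 CPM in fasted libraries. These sums do not speak for each marker either. Mpo was the largest part of the granulocyte and monocyte sum, and Csf1r was lower in control library 2 (59.3 CPM) than in fasted library 1 (76.5 CPM). In the main test Prss34 was at a log2 fold change of 0.70, while the other tested mast cell and basophil markers were lower in fasted libraries. Dntt was the largest part of the lymphoid sum, and Igkc was at -0.36 while the other tested lymphoid markers were higher. None of the 7 adipocyte or 6 stromal and endothelial markers reached 5 times background. The adipocyte sum was 10.0 to 16.7 CPM in control against 27.9 to 43.0 CPM in fasted libraries. The stromal and endothelial sum was 43.7 to 49.0 CPM in control against 74.2 to 135 CPM in fasted libraries. Neither sum overlapped between the groups, but the background share of counts was also higher in every fasted library. How much of these sums is background was not tested. The part of the cell types named here in the values below was not tested either. In bulk RNA, fewer cells of a type and less RNA per cell cannot be told apart.

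Sequences bear on these genes in 2 ways, as places where a PPAR could bind and as stretches that near-identical genes share. The direct repeat bound by PPAR and its partner, AGGTCA followed by any 1 base and a second AGGTCA, was searched on both strands with at most 2 mismatches in its 12 fixed bases, in windows from 250 bases before to 50 bases after annotated starts (RefSeq, GRCm38.p6). Windows were given for 31 of the 36 genes, and 4 of these 31 genes (12.9%) held a match, against 4.40% of the 27025 genes with a window. The 4 matches are shown with 8 bases on each side because they are the nearest to a PPAR site found in these windows. Each had 2 mismatches, and capitals mark the bases that match the motif.
Plin2: tctgacttAGGTCAggGGTCctgaaagct
Echs1: gcccgctcAGGTCAcgGGTCcacccctta
Etfa: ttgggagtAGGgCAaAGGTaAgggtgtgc
Slc25a20: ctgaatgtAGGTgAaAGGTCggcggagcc
In genome coordinates the 13-base matches lay at chr4:86670272-86670284 (plus strand), chr7:140116492-140116504 (minus), chr9:55512308-55512320 (plus) and chr9:108662142-108662154 (plus). A match describes letters only and is not a binding site. A single unit of the repeat, AGGTCA or its reverse complement TGACCT, a motif added after the data had been seen, stood in 13.0% of all windows from 250 to 21 bases before a start and in 15.2% of the 33 windows of these genes.

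Cpt1a had the smallest unadjusted p of the 30 genes tested, so the window upstream of its RefSeq start is shown (chr19:3323051-3323280, plus strand, RefSeq GRCm38.p6). That window lies inside the gene as GENCODE M21 gives it, which begins at 3322334, so bases before the M21 start were not searched. Capitals mark the single repeat unit in the window, which begins 94 bases before the RefSeq start. No full repeat with at most 2 mismatches was found in the window.
Cpt1a: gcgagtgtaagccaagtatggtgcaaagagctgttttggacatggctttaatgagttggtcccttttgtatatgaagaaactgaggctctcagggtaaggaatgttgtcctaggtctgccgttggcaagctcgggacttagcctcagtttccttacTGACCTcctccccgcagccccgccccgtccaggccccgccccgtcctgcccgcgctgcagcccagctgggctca

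No gene of the list passed the main test. The quasi-likelihood test of edgeR, adjusted by Benjamini-Hochberg, covered 30 of the 36 genes, and 0 passed at an adjusted p under 0.05, where 0 of all 10641 genes tested passed (0%). Adjusted p for the 30 genes lay between 0.148 (Cpt1a) and 0.977 (Hadh), and the smallest of all genes tested was 0.0901. At an unadjusted p under 0.05 there were 7 of 30 genes (23.3%), 5 higher and 2 lower in fasted libraries, against 19.8% of all genes tested, 11.5% higher and 8.3% lower. The higher ones were Cpt1a, Acot2, Ucp2, Acaa2 and Eci2, and the lower ones Acsl3 and Etfb. Acsl3 is in the test only through the control libraries, the group in which it was higher. The groups did not overlap for 10 of 30 genes (33.3%), against 27.3% of all genes tested. Of these 10, 5 were higher and 5 lower in fasted libraries, where 14.4% and 12.9% of all genes were. These shares lie near those of all genes and are not a result about the list.

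Fold changes ran from 0.622 (Acsl3) to 1.60 (Cpt1a), and the median log2 fold change was -0.03 over the 30 genes and 0.02 over all genes tested. Above 0 were 12 of the 30 genes, against 52.3% of all genes tested. The median size without regard to sign was 0.18 on the log2 scale, against 0.24 for all genes tested. DESeq2 on the same genes passed Acsl3 alone, at -0.71 with an adjusted p of 0.0483, where it passed 4.73% of all genes (1.65% lower). Because Acsl3 entered the test through the group in which it was higher, that call is no support for a difference. limma-voom passed 0 of 30, where it passed 0% of all genes.

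Directions depend on how libraries are scaled. In an edgeR fit of all 36508 genes that passed the count filter, with TMM factors from all of them, the median log2 fold change was -0.50 for the genes at or above 5 times background and 0.53 for those below it. That fit passed 3 of the 36 genes, Acsl3, Etfb and Eci1, all lower, where it passed 4.97% of all its genes (3.82% lower) and 12.9% of those at or above 5 times background. Of the 12 genes above 0 in the main fit, only Cpt1a stayed above 0 there, so the sign of each of the others turns with that scaling. Read against the median of the genes above background, the 3 stood at -0.73, -0.46 and -0.30 in the order named, and Cpt1a at 0.68. The count moved with single libraries, for these genes as for all genes. Of the 36, 0 passed without fasted library 1 (0.405% of all genes passed) and 0 without fasted library 3 (0.00274%). Without control library 1 it was 2 (3.56% of all genes), and without control library 2 it was 1, Acsl3 (0.523%). Without fasted library 2 it was 7 (5.68% of all genes), and without control library 3 it was 13 (14.8%). When all 36508 genes were tested with factors from the genes above background, 4 of the 36 passed (14.4% of all genes did) and all were higher. They were Cpt1a, Ucp2, Acot1 and Ppargc1a, the last 2 at only 2.25 and 2.23 times background. With library totals alone 1 passed, Cpt1a, higher, where 12.4% of all genes passed. All values below come from the main fit unless another is named.

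**Figure D1:**
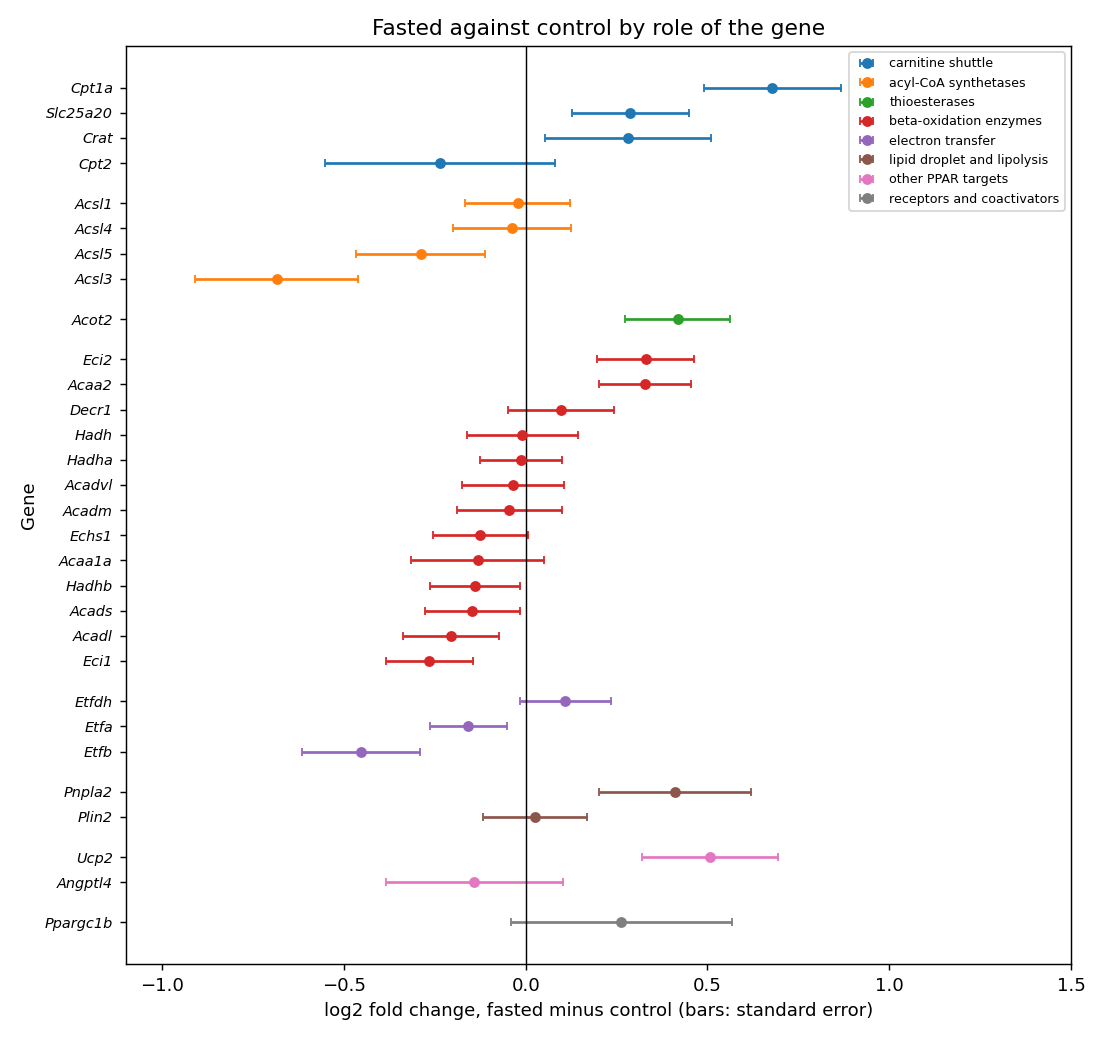
Log2 fold change of fasted against control libraries for the 30 genes in the main fit (horizontal axis), grouped by role, with bars for the standard error. Cpt1a at 0.68 and Acsl3 at -0.68 stand at the ends, and all enzymes of the oxidation cycle except Acaa2 and Eci2 lie between -0.27 and 0.10.

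Activation of fatty acids comes first in the pathway. The 4 long-chain acyl-CoA synthetases among the 36 genes had log2 fold changes below 0, where 52.3% of all genes tested were above 0. Those of Acsl1 and Acsl4 were only -0.02 and -0.04 and turned above 0 in some settings. Another form, Acsl6, lay at 2.42 times background and was not in the main test. Acsl3 (ENSMUSG00000032883.15, chromosome 1, 78657825 to 78707743, plus strand, GENCODE M21 on GRCm38 as for all genes here), a synthetase of the endoplasmic reticulum and of nascent lipid droplets, had 29.5, 22.6 and 27.2 CPM in control libraries 1, 2 and 3 and 18.0, 12.7 and 18.8 CPM in fasted libraries 1, 2 and 3. The groups did not overlap. Its log2 fold change of -0.68 (SE 0.22) had an edgeR adjusted p of 0.170, and with 1 library left out in turn it ranged from -0.82 to -0.56. Acsl3 entered the test through the control libraries, where its counts were 21.1, 9.33 and 8.42 times background, against 3.34, 2.85 and 3.86 times in the fasted ones, so it is in the test only because of the group in which it was higher. After background was subtracted its log2 fold change was -0.98. In the annotation, 3.59% of its 50-base stretches also lie in Utp14b, which overlaps it on the same strand.

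Acsl5, a synthetase of mitochondria and the endoplasmic reticulum, was the most abundant of the 4 per length, at 84.1 CPM per kilobase of exon over all libraries, against 12.6 for Acsl1, 11.9 for Acsl4 and 4.93 for Acsl3. It had 576, 404 and 369.7 CPM in the control and 327, 379 and 398.5 CPM in the fasted libraries. Control library 1 stood above the rest and the groups overlapped (log2 fold change -0.29, SE 0.18, edgeR adjusted p 0.387). Acsl1, the form best known from fat, heart and liver, had 124, 137 and 137.5 CPM in the control and 107, 142 and 143 CPM in the fasted libraries (log2 fold change -0.02, SE 0.14). Acsl4, which prefers arachidonic acid, had 61.3, 66.6 and 67.0 CPM in the control and 54.05, 76.6 and 59.1 CPM in the fasted libraries (log2 fold change -0.04, SE 0.16). Both sets of values overlapped, and their edgeR adjusted p were 0.947 and 0.914.

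Of the carnitine shuttle, Cpt1a had the largest positive value of the list. Cpt1a (ENSMUSG00000024900.5, chromosome 19, 3322334 to 3385733, plus strand) encodes the outer membrane transferase that sets the rate at which long-chain acids enter mitochondria. Between 1456 and 1783 of its reads were counted in each library, although the fasted libraries were shallower. Scaled, they were 58.0, 70.2 and 90.1 CPM in control and 137, 102.5 and 109.7 CPM in fasted libraries, and each fasted value was above each control value. The means were 72.8 ± 16.2 CPM in control and 116 ± 18.3 CPM in fasted libraries (SD, n = 3 each), a fold of 1.60. The log2 fold change of 0.68 (SE 0.19) had an unadjusted p of 0.00546 and an adjusted p of 0.148 in edgeR. DESeq2 gave it 0.66 with an adjusted p of 0.0550. It was 0.73 after background was subtracted, 0.54 to 0.84 with 1 library left out in turn, and 0.18 under the scaling of all 36508 genes.

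Its partners in the shuttle did not show one direction. Slc25a20, the carnitine-acylcarnitine carrier of the inner membrane and the gene whose window held a repeat match just after its start, had 49.1, 51.7 and 54.5 CPM in the control and 60.3, 75.2 and 54.0 CPM in the fasted libraries (log2 fold change 0.29, SE 0.16, edgeR adjusted p 0.3455). Fasted library 3 lay within the control range. Cpt2, the inner membrane transferase that hands the acyl group back to CoA, had 70.2, 47.65 and 27.0 CPM in the control and 38.7, 35.3 and 49.4 CPM in the fasted libraries (log2 fold change -0.23, SE 0.32, edgeR adjusted p 0.700). Its control values spanned more than its fasted ones, and without control library 1 its value turned to 0.14. Crat, which acts on acetyl groups, had 30.3 to 53.5 CPM in the control and 44.1 to 50.5 CPM in the fasted libraries (log2 fold change 0.28, SE 0.23, edgeR adjusted p 0.507), with control library 2 above all others. Under the scaling of all genes Slc25a20 and Crat were at -0.21 and -0.23.

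Thioesterases release free acids from acyl-CoA, and Acot1 and Acot2, known PPAR targets in liver, are neighbours on chromosome 12 (GRCm38 in GENCODE M21; Acot2 83987861 to 83993873, Acot1 84009490 to 84018371, both plus strand). Acot2 holds 43.6% of the 50-base stretches of the Acot1 coding sequence. The longest run identical in both, 273 bases in their last coding exon (chr12:84017006-84017278 in Acot1 and chr12:83992728-83993000 in Acot2), is shown because a read from it cannot be told to come from one or the other.
Acot1 and Acot2: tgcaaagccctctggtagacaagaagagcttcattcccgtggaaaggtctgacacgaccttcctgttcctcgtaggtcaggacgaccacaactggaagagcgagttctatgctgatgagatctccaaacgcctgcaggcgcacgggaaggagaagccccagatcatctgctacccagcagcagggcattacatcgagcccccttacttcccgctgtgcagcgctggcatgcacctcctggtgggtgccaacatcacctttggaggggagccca
Acot2, the mitochondrial form, had 61.0, 48.45 and 58.2 CPM in control libraries 1, 2 and 3 and 76.8, 77.4 and 69.9 CPM in fasted libraries 1, 2 and 3. All 3 fasted values were above all control values (log2 fold change 0.42, SE 0.14, edgeR adjusted p 0.177), 0.29 to 0.49 with 1 library left out, while under the scaling of all genes it was -0.10. Acot1, the cytosolic form, had 125, 100 and 107 counts in the control and 129, 158 and 104 counts in the fasted libraries, 2.25 times background on average, and did not enter the main test. How reads shared by the pair were counted is not given in the sources used here, so both values are uncertain.

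**Figure D2:**
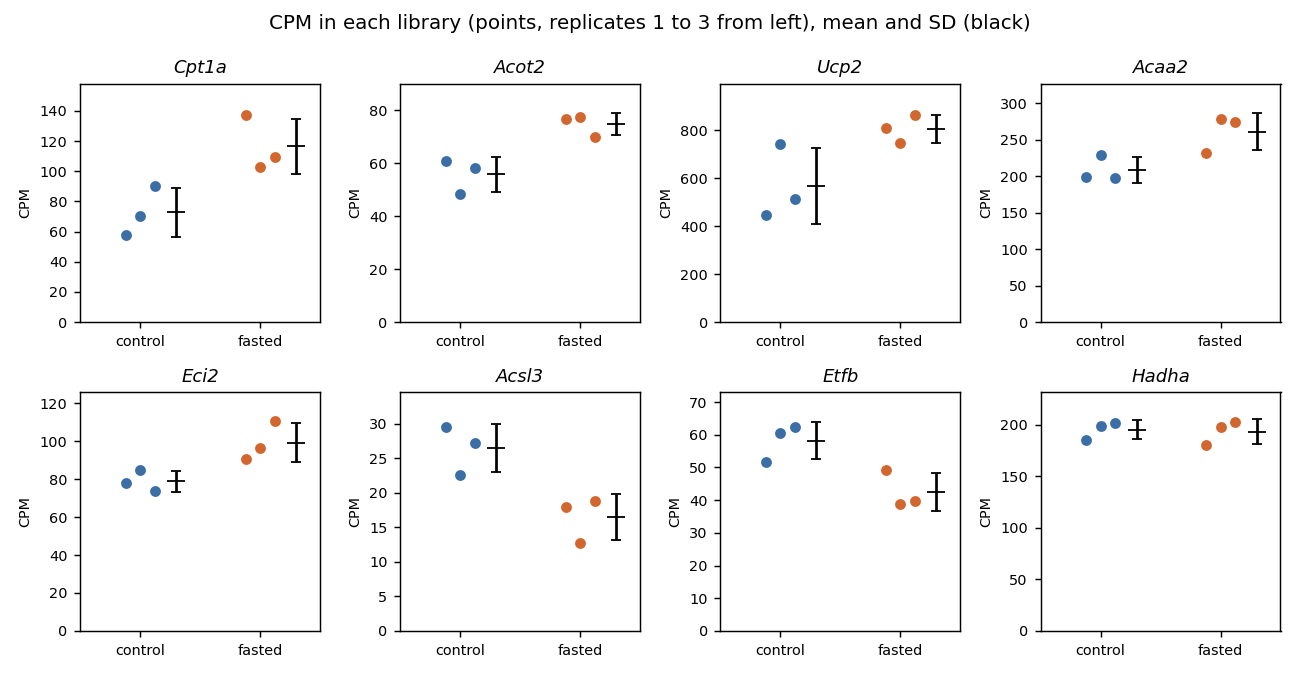
CPM in each library (vertical axis, from 0) for the 7 genes with an unadjusted p under 0.05 and for Hadha, with points for libraries and the mean and SD in black. Cpt1a, Acot2, Acaa2, Eci2, Acsl3 and Etfb have separate groups, Ucp2 does so by a narrow gap between control library 2 and fasted library 2, and Hadha does not separate.

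The 13 enzymes of the oxidation cycle lay at 14.95 to 206 times background, and most of their differences were near 0. Their median log2 fold change was -0.04, 3 were above and 10 below 0, and 10 of 13 were within 0.25 of 0, where 51.3% of all genes tested were. Hadha and Hadhb encode the trifunctional protein, which carries out the last 3 steps on long chains. Hadha had 185, 199 and 202 CPM in control libraries 1, 2 and 3 and 180.0, 197.5 and 203 CPM in fasted libraries 1, 2 and 3 (log2 fold change -0.01, SE 0.11). Hadhb had 173, 161 and 183.5 CPM in the control and 153, 173 and 144 CPM in the fasted libraries (log2 fold change -0.14, SE 0.12). Both pairs of groups overlapped, and 19.7% of the 50-base stretches of Hadhb recur in other genes, mostly in Gm13910. A test that was not passed does not show that a level was the same in both groups.

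The acyl-CoA dehydrogenases carry out the first step, each on its own chain length. Acadvl, for very long chains, had 96.2, 97.75 and 81.3 CPM in the control and 80.8, 99.5 and 88.1 CPM in the fasted libraries (log2 fold change -0.04, SE 0.14). Acadm, for medium chains, had 115, 97.2 and 89.0 CPM in the control and 98.1, 106 and 87.35 CPM in the fasted libraries (log2 fold change -0.04, SE 0.14), and these groups overlapped too. Acadl, for long chains, had 156, 133 and 129 CPM in the control and 112, 133 and 118 CPM in the fasted libraries (log2 fold change -0.21, SE 0.13), with fasted library 2 just under control library 2. Acads, for short chains, had a log2 fold change of -0.15 (SE 0.13) and control values of 87.0 to 96.1 CPM that stopped short of overlapping fasted values of 72.7 to 87.0 CPM. Adjusted p for the 4 dehydrogenases lay between 0.407 and 0.904 in edgeR. Acadvl shares 26.9% of its 50-base stretches with Dvl2, which overlaps it on the other strand.

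Thiolase and isomerase genes held the other values of note in the cycle. Acaa2 (ENSMUSG00000036880.10, chromosome 18, 74779197 to 74806208, plus strand), the mitochondrial thiolase of the last step, was the most abundant of all 36 genes per length (155 CPM per kilobase). It had 199, 229 and 197 CPM in control libraries 1, 2 and 3 and 232, 278 and 274 CPM in fasted libraries 1, 2 and 3. The lowest fasted value was a little above the highest control value (log2 fold change 0.33, SE 0.13, edgeR adjusted p 0.210). Eci2 (ENSMUSG00000021417.15, chromosome 13, 34977748 to 35027096, minus strand), an isomerase for unsaturated acids, had 78.1, 84.8 and 73.8 CPM in the control and 90.6, 96.6 and 110.5 CPM in the fasted libraries, again without overlap (log2 fold change 0.33, SE 0.13, edgeR adjusted p 0.226). Under the scaling of all genes Acaa2 and Eci2 were at -0.19 and -0.19, so the sign of both depends on it. Eci1 (ENSMUSG00000024132.6, chromosome 17, 24426641 to 24439348, plus strand), the mitochondrial isomerase, went the other way with 125, 115 and 110.5 CPM in the control and 99.7, 92.6 and 99.55 CPM in the fasted libraries (log2 fold change -0.27, SE 0.12, edgeR adjusted p 0.2615). It passed in the fit of all 36508 genes at -0.79 (edgeR adjusted p 0.0465). The remaining enzymes, Hadh, Echs1, Decr1 and the peroxisomal thiolase Acaa1a, had values from -0.13 to 0.10 with overlapping groups and edgeR adjusted p of 0.611 or more.

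Electrons from the dehydrogenases pass to the electron transfer flavoprotein, a pair of the subunits Etfa and Etfb, and on to the ubiquinone oxidoreductase Etfdh. Etfb (ENSMUSG00000004610.4, chromosome 7, 43444083 to 43457800, plus strand) had 51.7, 60.4 and 62.3 CPM in control libraries 1, 2 and 3 and 49.2, 38.8 and 39.6 CPM in fasted libraries 1, 2 and 3. Each control value was above each fasted one (log2 fold change -0.45, SE 0.16, edgeR adjusted p 0.191), -0.57 to -0.40 with 1 library left out, and it passed in the fit of all 36508 genes at -0.96 (edgeR adjusted p 0.0340). A gene model on the same strand, Gm45233, overlaps Etfb, and 44.8% of the 50-base stretches of Etfb recur in other genes, so its counts are uncertain. Etfa, its partner subunit, was 114 CPM per kilobase against 43.25 for Etfb, and also had separate groups, with 217 to 228 CPM in control and 191 to 204 CPM in fasted libraries. That difference was smaller (log2 fold change -0.16, SE 0.11, edgeR adjusted p 0.427). Etfdh had 138, 136 and 129.8 CPM in the control and 127.5, 155 and 153 CPM in the fasted libraries (log2 fold change 0.11, SE 0.12, edgeR adjusted p 0.647), with fasted library 1 below all control libraries and the other fasted libraries above them.

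**Figure D3:**
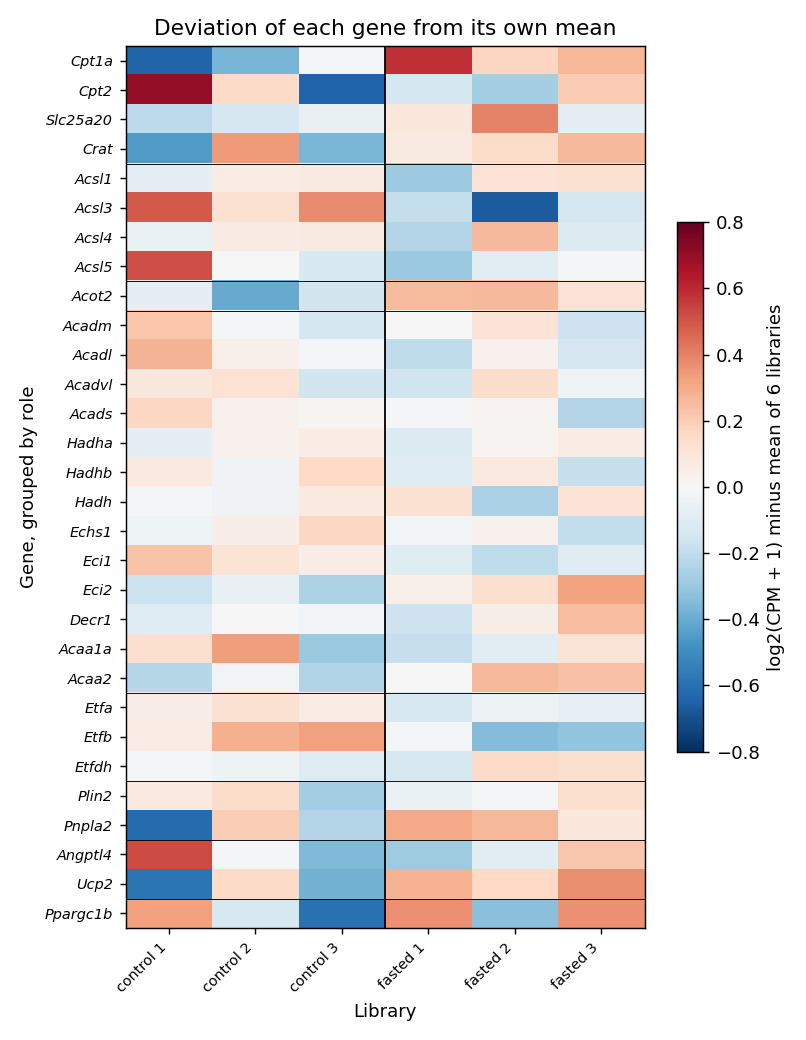
Deviation of log2(CPM + 1) in each library (columns) from the gene's mean over 6 libraries, for the 30 genes in the main fit (rows, by role), with red above and blue below the mean. The rows of Cpt1a, Acot2, Acaa2, Eci2 and Ucp2 are red or near white on the fasted side at the scaling of the main fit, those of Acsl3 and Etfb blue or near white, while Cpt2 goes from red in control library 1 to blue in control library 3.

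Lipid droplets hold fatty acids as triglyceride until lipases release them. Pnpla2, the lipase that takes the first acid, had 37.1, 65.8 and 48.5 CPM in control libraries 1, 2 and 3 and 71.1, 69.1 and 60.9 CPM in fasted libraries 1, 2 and 3. Control library 1 was low, control library 2 lay within the fasted range and the groups overlapped (log2 fold change 0.41, SE 0.21, edgeR adjusted p 0.306). Plin2, a droplet coat protein and a common PPAR target whose window held a repeat match, had 141, 148 and 110.4 CPM in the control and 128.5, 132 and 146 CPM in the fasted libraries (log2 fold change 0.03, SE 0.14, edgeR adjusted p 0.937), with no separation of the groups. Lipe, the hormone-sensitive lipase, had 596, 397 and 353 counts in the control and 241, 330 and 249 counts in the fasted libraries, 11.3, 5.135 and 4.08 times background in control and 2.88, 3.50 and 2.86 times in fasted libraries. At 4.50 times on average it fell just short of the main test, whose lowest member was Ppargc1b at 6.38 times. The 7 adipocyte markers lay between 0.305 (Cfd) and 2.69 (Lep) times background, 4 of them below 1 (Adipoq, Cfd, Retn and Plin1) and Lep, Cidec and Fabp4 above 2. Their sum, given above, was higher in every fasted library, and so was the background share of counts.

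The other PPAR targets differed in level. Ucp2 (ENSMUSG00000033685.13, chromosome 7, 100493337 to 100502020, plus strand), an inner membrane carrier whose RNA is abundant in blood cells, had 446, 745 and 513 CPM in control libraries 1, 2 and 3 and 811, 747 and 864 CPM in fasted libraries 1, 2 and 3. Control library 2 almost reached fasted library 2, and the means were 568 ± 157 CPM in control and 807 ± 58.5 CPM in fasted libraries (SD, n = 3 each). The log2 fold change of 0.51 (SE 0.19) had an edgeR adjusted p of 0.201, was 0.36 to 0.72 with 1 library left out, and was -0.0046 under the scaling of all genes. Dnajb13 overlaps Ucp2 on the other strand, and whether counting used strand is not given in the sources used here. Angptl4, a secreted inhibitor of lipoprotein lipase and a sensitive PPAR target, had 62.9, 43.1 and 33.7 CPM in the control and 35.5, 40.75 and 50.5 CPM in the fasted libraries. Its highest value was in control library 1 and the groups overlapped (log2 fold change -0.14, SE 0.24, edgeR adjusted p 0.767). Without control library 1 its value turned to 0.14. Pdk4, the kinase that turns off pyruvate dehydrogenase in fasted muscle and liver, had 43, 59 and 92 counts in the control and 55, 83 and 91 counts in the fasted libraries. That was 1.47 times background on average, and ran from 1.10 to 1.75 times in fasted libraries, against 1.28 to 1.78 times in control libraries, and a difference between the groups was not detectable over background.

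The receptors themselves were at or near background. Ppard, the PPAR of most tissues, had 105, 97 and 77 counts in the control and 73, 124 and 117 counts in the fasted libraries, and background alone would leave 67.5 to 120.3 counts on a gene of its length. Ppara, the receptor that drives the fasting response of liver, had 87, 72 and 71 counts in the control and 80, 83 and 110 counts in the fasted libraries, 1.60 times background on average. Ppargc1a, the coactivator induced by fasting in liver and muscle, had 129, 205 and 213 counts in the control and 207, 229 and 219 counts in the fasted libraries and lay at 2.17 to 2.37 times background in every library. As CPM these were 8.015 ± 3.14 in control and 16.4 ± 1.70 in fasted libraries (SD, n = 3 each), and the background share differed between the groups in the same direction. The related coactivator Ppargc1b was tested and had 23.1, 16.6 and 11.7 CPM in the control and 23.8, 14.3 and 23.7 CPM in the fasted libraries (log2 fold change 0.26, SE 0.30, edgeR adjusted p 0.649), with both groups spread over the same range. Its counts were 18.1, 7.46 and 3.96 times background in control and 4.83, 3.51 and 5.33 times in fasted libraries. Ppargc1b thus entered the test through the control libraries.

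**Figure D4:**
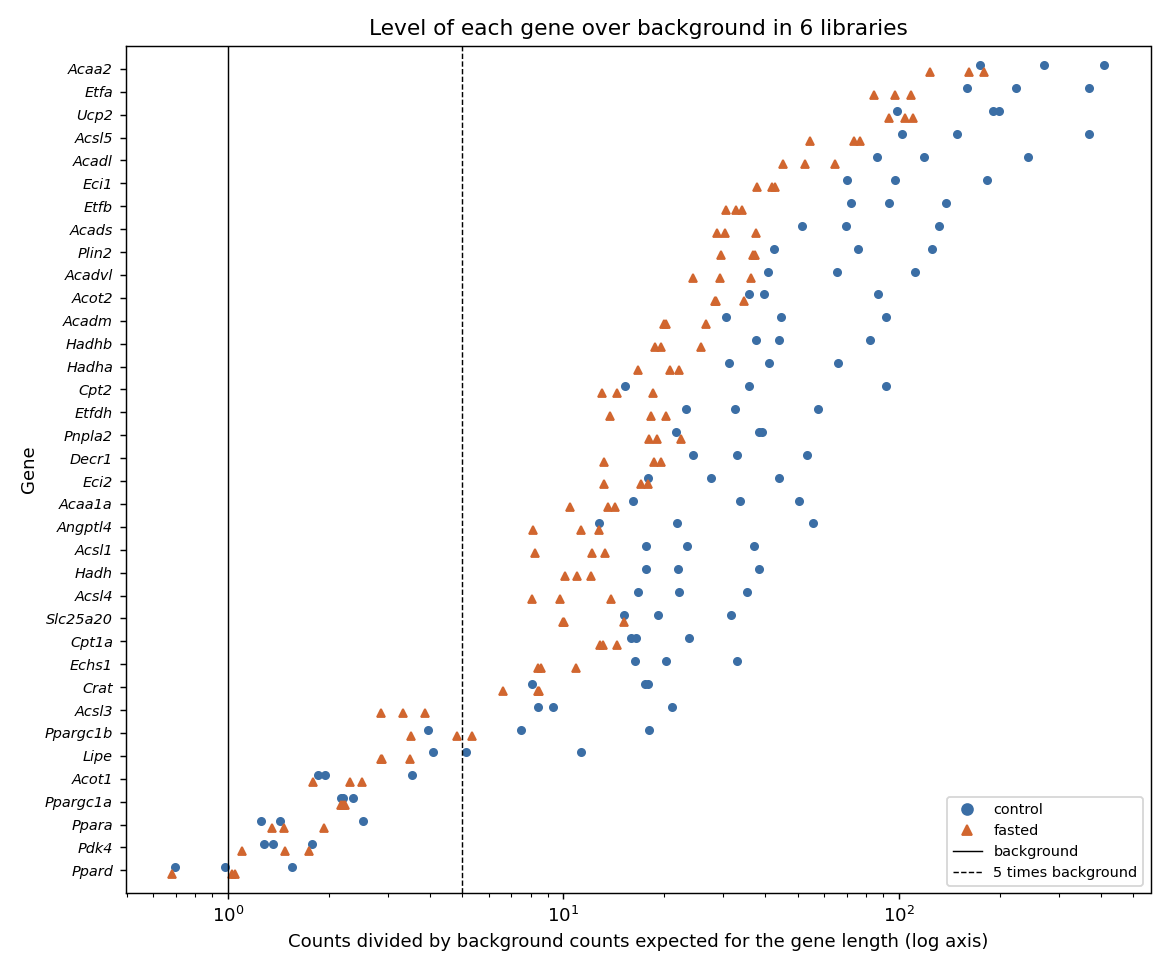
Counts of each of the 36 genes in each library divided by the counts that background would leave on a gene of that length (horizontal log axis), circles for control and triangles for fasted libraries. Lipe, Acot1, Ppargc1a, Ppara, Pdk4 and Ppard lie left of the dashed line at 5 times background in the mean. For all 36 the mean ratio is lower in fasted libraries, in which background took a larger share of the counts.

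A wider list of 84 genes of the same pathways, none among the 36, also held no call in the main fit. Of these, 44 reached that test and 0 passed (smallest edgeR adjusted p 0.1315), where 0% of all genes did. At an unadjusted p under 0.05 there were 5 higher and 7 lower (27.3% of 44, against 19.8% of all genes tested), and the median log2 fold change was -0.08. In the edgeR fit of all 36508 genes, 9 of the 83 tested there passed (10.8%), all lower, where 4.97% of all genes passed and 12.9% of those at or above 5 times background. DESeq2, which passed 4.73% of all genes, passed 6 of the 44, 3 higher, among them Nrip1 and Pdk2, and 3 lower, Oxct1, Acot9 and Ivd. Nrip1, a corepressor of nuclear receptors, had 41.1, 49.0 and 46.95 CPM in control libraries 1, 2 and 3 and 73.5, 61.7 and 79.0 CPM in fasted libraries 1, 2 and 3 (log2 fold change 0.64, SE 0.16, edgeR adjusted p 0.1315). The groups did not overlap. Pdk2, a kinase of the same family as Pdk4, had 38.6, 35.5 and 32.1 CPM in the control and 52.4, 51.1 and 56.2 CPM in the fasted libraries (log2 fold change 0.59, SE 0.15, edgeR adjusted p 0.140), while the log2 fold change of Pdk3 was -0.38 (SE 0.12). The peroxisomal enzyme Ehhadh and the phosphatidate phosphatase Lpin1 had 0.69 (SE 0.27) and 0.51 (SE 0.22) as log2 fold changes. For both the groups overlapped, and Ehhadh lay at only 5.58 times background. Under the scaling of all 36508 genes Nrip1, Pdk2, Ehhadh and Lpin1 were at 0.13, 0.05, 0.16 and -0.06.

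Among the lower ones, Oxct1, the enzyme that lets cells outside the liver use ketone bodies, had 113, 131 and 106 CPM in control libraries 1, 2 and 3 and 77.7, 83.7 and 80.9 CPM in fasted libraries 1, 2 and 3. All control values were above all fasted values (log2 fold change -0.53, SE 0.13, edgeR adjusted p 0.1315, DESeq2 adjusted p 0.0193). The thioesterases Acot9 and Acot7 had log2 fold changes of -0.68 (SE 0.19) and -0.77 (SE 0.24), and Ivd, a dehydrogenase of leucine breakdown, one of -0.45 (SE 0.13). In the edgeR fit of all genes Oxct1 (-1.05, adjusted p 0.0296), Acot9 (-1.17, 0.0277), Acot7 (-1.29, 0.0288), Ivd (-0.96, 0.0333) and Pdk3 (-0.90, 0.0383) passed, where the median of genes above background was -0.50. The retinoid X receptor Rxra, the receptor Esrra, the fatty acid transporter Cd36, the lipase Lpl and the receptor Pparg were between 1.36 (Lpl) and 4.27 (Cd36) times background and were not tested. Rxrb, another retinoid X receptor, lay at 17.65 times background and was tested (log2 fold change 0.09, SE 0.16, edgeR adjusted p 0.7735).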

How the data were processed

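RNA was measured by bulk sequencing in 6 libraries, 3 control and 3 fasted, grouped by the treatment in the labels. The authors deposited whole-number read counts per gene, and the submitters' processing notes name HISAT2 2.2.1, featureCounts 2.0.1 and GRCm38. The annotation release, the strand setting and the treatment of reads with several matches are not given in the sources used here. Of the 55487 identifiers, 54435 match GENCODE M21 with version, all with the same exonic length, and the 36 genes are among them. The build names are the same, so M21 positions are given on GRCm38.

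Background was the counts per kilobase in 1466 protein-coding odorant and vomeronasal receptor genes. Genes that passed edgeR's filterByExpr with a mean count of at least 5 times background for their length (10641 genes) were fitted with TMM factors from these genes and edgeR 4.0.16 (glmQLFit, robust, glmQLFTest, group only), under R 4.3.3, with Benjamini-Hochberg adjustment over all of them. CPM use the same factors, with the summed counts of these genes as library size. A second fit took all 36508 genes passing filterByExpr, and DESeq2 1.42.0 and limma 3.58.1 (voom) were alternatives, with other scalings, background limits, count filters, a replicate block and each library left out. A shared run of 50 bases was looked for between M21 transcripts of a gene and those of all others. On simulated counts for the main fit, 193 of 200 genes changed 4-fold were recovered (96.5%), with 4 false calls among 10641 genes. Every gene was given the same relative spread there, so that share need not hold for these libraries. In the data Ms4a3 and Elane, at log2 fold changes of -3.56 and -3.31, did not pass (edgeR adjusted p 0.17 and 0.227). The simulation also says nothing of folds as small as those of the genes described here.

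The genes and lists were chosen with earlier results of these data known. Values in every library are given for genes with an unadjusted p under 0.05 in the main fit, genes passing in the fit of all genes, and a list of well-known members. Of 84 other pathway genes, at most 5 higher and 5 lower by unadjusted p are named, with others set by name, and some of these genes are not reported here. Totals of 12797144 to 30246110 counts limit precision for weakly expressed genes. No protein sequence was used here.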

Additional observations from a re-analysis of the deposited data

How the results depend on the processing

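In the main fit, 0 of the genes passed with the RLE, upper-quartile or library-total scalings, with limma-voom, at 10 times background, after background subtraction, with any 1 library left out (0 to 0) and with the replicate number as a block. DESeq2 passed 1 (Acsl3; 4.73% of all genes), and fitting the genes at or above 2 times background, which again takes TMM factors from genes nearer background, passed 3 of 33 (Acsl3, Eci1 and Etfb, lower; 7.87% of all genes). Of the other pathway genes, where 0 passed, DESeq2 passed 6 of 44 and the limit of 2 times background 11 of 70, with 3 higher and 8 lower. The fit of all 36508 genes, where 3 passed, gave 13 with DESeq2 (12.7% of all genes), 5 with RLE factors (8.14%), 1 with library totals (Cpt1a, higher; 12.4%), 5 with a total count of at least 1 (5.38%), 1 with the replicate block (Acsl3; 0.4%) and 0 to 13 with 1 library left out (0.00274% to 14.8%). The cause of these differences was not tested. Over samples with the same number, the correlation of deviations was -0.18, 0.14 and -0.37, so the numbers were not taken to pair the samples.

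The median log2 fold change was -0.36 over the 33 genes tested at 2 times background and -0.52 over all 36 in the fit of all genes. Over the 30 genes it was -0.54 in the fit of all genes, -0.035 with the replicate block and -0.13 to 0.034 with 1 library left out, lowest without fasted library 2. In the fit of all genes, every one of the 12 genes above 0 in the main fit except Cpt1a changed sign. The edgeR adjusted p of these sign changes went down to 0.157 (Plin2). In the other settings, listed next, some genes changed sign, each with an adjusted p of at least 0.233 there. Among them were Acaa2 and Eci2, which had an unadjusted p under 0.05 in the main fit. At 2 times background the log2 fold changes that did so were -0.038 (Slc25a20), -0.063 (Crat), -0.015 (Eci2), -0.23 (Etfdh), -0.011 (Acaa2), -0.24 (Decr1), -0.32 (Plin2) and -0.11 (Ppargc1b). With upper-quartile factors they were 0.023 (Acadm), 0.031 (Acadvl), 0.053 (Hadha), 0.061 (Hadh), 0.044 (Acsl1) and 0.026 (Acsl4). At 10 times background they were 0.035 (Acadm), 0.042 (Acadvl), 0.063 (Hadha), 0.070 (Hadh), 0.053 (Acsl1) and 0.037 (Acsl4). After background subtraction they were 0.0029 (Acadm), 0.019 (Acadvl) and 0.026 (Hadha), and with library totals -0.0065 (Plin2). With 1 library left out, the ranges that crossed 0 were -0.55 to 0.14 (Cpt2), -0.15 to 0.063 (Acadm), -0.15 to 0.032 (Acadvl), -0.059 to 0.035 (Hadha), -0.074 to 0.078 (Hadh), -0.012 to 0.20 (Decr1), -0.12 to 0.10 (Acsl1), -0.23 to 0.063 (Acsl4), -0.35 to 0.14 (Angptl4) and -0.12 to 0.071 (Plin2). With 3 libraries a group and a fasted group that was shallower and had a larger background share, genes near background could not be compared. Ppara and Ppard were among them.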
